A study of Homo sapiens with 2 samples.

Results

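The genes described here are 10 regulators of the decay of AU-rich mRNAs, measured by RNA sequencing in HSC-1, a human cell line established from cutaneous squamous cell carcinoma. They were chosen by symbol as ZFP36, ZFP36L1, ZFP36L2, ZC3H12A, ELAVL1, BTG1, TOB1, TOB2, CNOT1 and DCP2, and all 10 were found among the 44591 genes of the table. The rule that picks them uses symbols and no measured value, though the list was drawn up with earlier results of these data known. The study asked what LINP1, a long noncoding RNA named for DNA end joining, does in these cells. HSC-1 cells were transfected at about 70% confluency with siNC, a control siRNA, or with siLINP1, siRNA that targets LINP1, then kept for 6 h in medium without serum and for a further 24 h in medium with serum, and total RNA was sequenced. There is 1 library per condition, so the libraries differ in the siRNA alone as far as the labels say, no spread between cultures can be had, no test was possible and no p-value is given. The intervals below are 95% intervals that cover the error of counting reads only, except where an interval of a median over genes is named.

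Many mRNAs of cytokines, growth factors and early response genes carry AU-rich elements in the 3′UTR, stretches built on the pentamer AUUUA that mark the mRNA for fast decay. The zinc finger proteins of the ZFP36 family bind the nonamer TTATTTATT, read with U for T in RNA, and bring in the CCR4-NOT complex, which removes the poly(A) tail, after which the cap is removed and the mRNA is degraded from its 5′ end or by the exosome. ELAVL1 (HuR) binds similar elements and mostly protects the mRNA, whereas ZC3H12A (Regnase-1) is an endonuclease that cuts stem-loops in the 3′UTR of inflammatory mRNAs.

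Regulators of AU-rich decay can carry the element themselves, and the mRNAs of 4 of the 10 held the nonamer in the longest 3′UTR that the GENCODE annotation of GRCh37 gives for the gene. The site of each is shown here with 8 bases on either side, as DNA on the sense strand from 5′ to 3′, with the nonamer in capitals. The ZFP36 site lies at chr19:39899838-39899862 on the plus strand, the ZFP36L1 site at chr14:69254796-69254820, the ZFP36L2 site at chr2:43450589-43450613 and the ELAVL1 site at chr19:8026714-8026738, the last 3 on the minus strand.
ZFP36: tgacgactTTATTTATTctaatatg
ZFP36L1: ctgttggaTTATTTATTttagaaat
ZFP36L2: tatttaacTTATTTATTatcttgtg
ELAVL1: ttatgtatTTATTTATTgaagtgtg

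The siLINP1 library held 15383081 counted reads and the siNC library 18829544, and 19840 genes were kept, each with at least 10 reads in all. LINP1 (chr10:6779344-6780901 of hg19, plus strand) had 167 reads in siNC and 23 in siLINP1, a level 6.28-fold lower (95% interval 4.05 to 10.2). Of 14 squamous epithelial marker genes 6 were under 1 RPKM (reads per kilobase of gene length, scaled to 1000000 reads) in both libraries, among them KRT5, TP63 and CDH1. In siNC and siLINP1, KRT14 stood at 7.89 and 3.46 RPKM and ITGB4 at 51.4 and 41.6 RPKM. VIM, the highest of 9 mesenchymal markers, had 61097 and 41992 reads, or 1519 and 1278 RPKM. Of the 9, 2 were under 1 RPKM in both libraries, COL1A2 and DCN. Of 8 blood cell markers 7 were under 1 RPKM in both, 4 of them with 0 reads, while CD68 stood at 48.7 and 45.8 RPKM. The median level of the squamous list was 1.36 RPKM in siNC and 1.71 RPKM in siLINP1, and that of the 9 mesenchymal markers was 5.57 and 5.44 RPKM. Fewer cells of a type and less RNA per cell cannot be told apart in such bulk RNA.

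All 10 regulators were read well, with 356 to 3460 reads in a library. Levels are compared between genes in RPKM. In siNC, ZFP36L2 was highest at 47.9 RPKM. ZFP36 at 32.7, ZFP36L1 at 30.4 and BTG1 at 30.2 RPKM followed, each with an interval that overlaps that of its neighbour. TOB2 stood at 21.9, CNOT1 at 20.2, ELAVL1 at 19.0, TOB1 at 10.1, ZC3H12A at 6.75 and DCP2 at 5.27 RPKM, and of these neighbours only CNOT1 and ELAVL1 did not differ beyond their counting intervals. The highest level was 9.08 times the lowest.

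In siLINP1 the order differed. ZFP36 came first at 100.6 RPKM (95% interval 96.8 to 104), followed by BTG1 at 46.6, ZFP36L2 at 42.1 and ZFP36L1 at 35.6 RPKM, with no overlap between the intervals of these neighbours. CNOT1 at 23.0 and TOB2 at 22.6 RPKM overlapped, as did ELAVL1 at 16.3 and ZC3H12A at 15.2 RPKM. TOB1 stood at 10.6 and DCP2 was again lowest at 7.10 RPKM. The span from the lowest to the highest widened to 14.2 times, and the levels of the 10 summed to 320 RPKM against 224 RPKM in siNC.

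**Figure D1:**
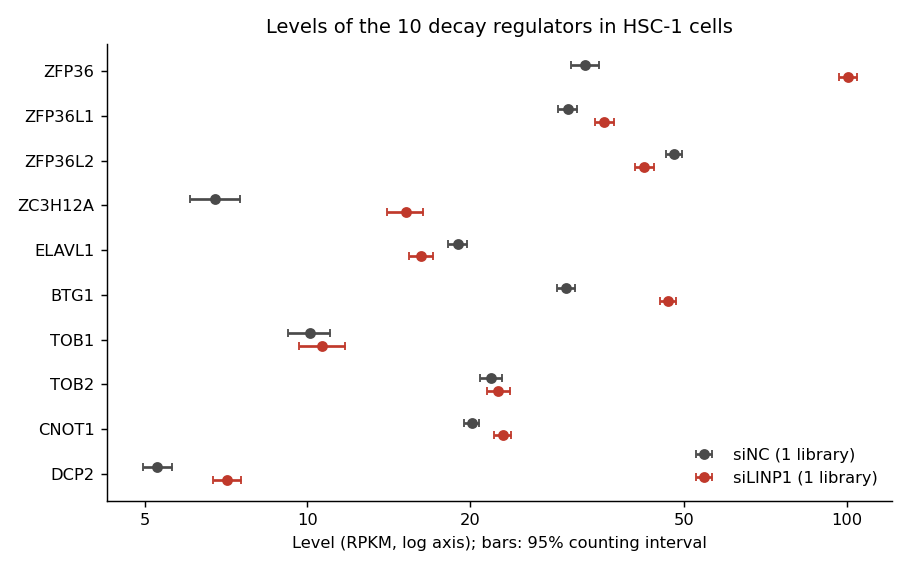
Level of each regulator in RPKM (log axis) in the siNC library (grey) and the siLINP1 library (red), with bars for the 95% counting interval. ZFP36 went from 32.7 RPKM in siNC to 100.6 RPKM in siLINP1 and ZC3H12A from 6.75 to 15.2 RPKM, and the intervals of TOB1 and TOB2 overlap between the libraries.

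Fold changes were taken after scaling by median-of-ratios size factors, and a difference past 1.5-fold was counted. Of the 10 regulators 2 were more than 1.5-fold higher in siLINP1, ZFP36 and ZC3H12A, and 0 were more than 1.5-fold lower. Over all genes kept, 14.4% were more than 1.5-fold higher and 13.0% more than 1.5-fold lower. Both genes were also more than 2-fold higher, with 6.74% of all genes kept more than 2-fold higher and 5.33% more than 2-fold lower. Genes with many reads are the closer background, since 9 of the 10 had at least 1000 reads over both libraries. Among the 7071 such genes 5.47% were more than 1.5-fold higher, 3.56% more than 1.5-fold lower, 1.40% more than 2-fold higher and 0.269% more than 2-fold lower. The median log2 fold change of the 10 was 0.13, beside -0.023 over all genes kept and -0.037 over the genes with at least 1000 reads. With GAPDH set equal in both libraries the median of the 10 was 0.67, beside 0.52 over all genes kept. With 10 genes, a count of 2 is read as a description of these genes and not of the pathway.

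The ZFP36 family binds the element. ZFP36 (tristetraprolin; chr19:39897487-39900052, plus strand) had 1080 reads in siNC and 2711 in siLINP1. On the log2 scale the fold change was 1.54 (95% interval 1.44 to 1.64), which is 2.90-fold higher and the largest of the 10. Among the genes with at least 1000 reads 33, or 0.467%, had a value as high or higher. The paralogs did not share this difference.

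ZFP36L1 (chr14:69254372-69262960, minus strand) had 2313 reads in siNC and 2210 in siLINP1, which gives 0.14 on the log2 scale (95% interval 0.059 to 0.23). ZFP36L2 (chr2:43449541-43453745, minus strand) had 3328 and 2394 reads, which gives -0.27 on the log2 scale (95% interval -0.34 to -0.19) that turned to 0.28 where GAPDH was set equal in both libraries. The ratio of ZFP36 to ZFP36L1 within a library needs no scaling, and it was 2.63 times higher in siLINP1 (95% interval 2.40 to 2.88), while that of ZFP36 to ZFP36L2 was 3.49 times higher (95% interval 3.20 to 3.81). In siNC, ZFP36L2 made up 43.1% of the family's summed RPKM, ZFP36 29.5% and ZFP36L1 27.4%. In siLINP1, ZFP36 made up 56.4%, ZFP36L2 23.6% and ZFP36L1 19.9%, and the summed level of the family was 178 RPKM against 111 RPKM. The member with the highest level was thus ZFP36L2 in one library and ZFP36 in the other.

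ZC3H12A (chr1:37940119-37949978, plus strand), the endonuclease, had 356 reads in siNC and 655 in siLINP1. On the log2 scale the fold change was 1.09 (95% interval 0.90 to 1.28), or 2.13-fold higher with an interval of 1.87 to 2.43, so that the whole interval lies beyond 1.5-fold but not beyond 2-fold. Of the genes with at least 1000 reads 77, or 1.09%, had a value as high or higher. ZFP36 was higher than ZC3H12A by a further 1.36 times (95% interval 1.18 to 1.58). ELAVL1 (chr19:8023457-8070529, minus strand), the protein that protects AU-rich mRNAs, had 2166 and 1515 reads, which gives -0.31 on the log2 scale (95% interval -0.40 to -0.21) that turned to 0.24 with GAPDH set equal. The ratio of ZFP36 to ELAVL1 was 1.72 in siNC and 6.19 in siLINP1 on the RPKM scale, a change of 3.59 times (95% interval 3.26 to 3.95) and the widest between any of the 45 pairs of regulators.

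BTG1, TOB1 and TOB2 are antiproliferative adaptor proteins that bind the deadenylase of CCR4-NOT. BTG1 (chr12:92534054-92539673, minus strand) had 2662 reads in siNC and 3354 in siLINP1, which gives 0.54 on the log2 scale (95% interval 0.47 to 0.62). At 1.46-fold higher it was just under 1.5-fold, and it passed that line with total count scaling, where its log2 value was 0.63. Among the genes with at least 1000 reads 6.38% had a value as high or higher.

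TOB1 (chr17:48939584-48945339, minus strand) had 479 and 413 reads, and TOB2 (chr22:41829492-41843027, minus strand) had 1883 and 1588. Their log2 fold changes were -0.0044 (95% interval -0.20 to 0.19) and -0.036 (95% interval -0.13 to 0.061), and under the other scalings the value of TOB1 was 0.023 to 0.54 and that of TOB2 was -0.0090 to 0.51. For neither did the counts show a difference between the libraries with median-of-ratios, total count or TMM scaling. With GAPDH scaling the values of 0.54 and 0.51 lay above the intervals given. The ratio of BTG1 to TOB1 was 1.46 times higher in siLINP1 (95% interval 1.27 to 1.68) and that of BTG1 to TOB2 was 1.49 times higher (95% interval 1.37 to 1.62), so BTG1 differed from both TOB genes beyond counting error.

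CNOT1 and DCP2 act downstream, CNOT1 as the scaffold of CCR4-NOT and DCP2 as the enzyme that removes the cap. CNOT1 (chr16:58553850-58663790, minus strand) had 3460 reads in siNC and 3227 in siLINP1, which gives 0.11 on the log2 scale (95% interval 0.039 to 0.18). DCP2 (chr5:112312407-112357892, plus strand) had 1012 and 1114 reads, which gives 0.35 on the log2 scale (95% interval 0.22 to 0.47), which is 1.27-fold higher. Neither passed 1.5-fold except with GAPDH scaling, where both did. The 3′ end of CNOT1 overlaps SETD6 on the other strand, with 637 and 559 reads, and that of DCP2 overlaps MCC, with 369 and 355 reads. ELAVL1 overlaps an antisense gene with 10 and 4 reads and TOB1 overlaps TOB1-AS1 with 15 and 12 reads. Without the strand setting of the counting, reads of such partners cannot be told apart. BTG1 overlaps LINC01619 on the same strand, with 9 and 26 reads, which no strand setting would separate.

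By median-of-ratios scaling the counting interval lay wholly above 0 for 6 of the 10 and wholly below 0 for 2, ZFP36L2 and ELAVL1. The values of these 2 turned above 0 with GAPDH set equal. For TOB1 and TOB2 the interval spanned 0. Counting intervals are narrow at these read counts, and the share of all genes with an interval clear of 0 was not counted. These numbers thus describe the 10 genes only. Of the 45 pairs of regulators 40 changed in ratio beyond the counting interval. The pairs share the same 10 genes, and pairs of other genes were not counted. The number is therefore not read as a trait of the regulators. GAPDH, the reference gene of the study's qPCR, had 124059 reads in siNC and 73563 in siLINP1, a log2 fold change of -0.54 by itself, so setting it equal moves every value up by 0.54. With that shift 6 regulators were more than 1.5-fold higher, and the median of all genes kept stood at 0.52. Of 5 reference genes GAPDH had the lowest value by median-of-ratios scaling. The others were HPRT1 at -0.45, PPIA at -0.29, TBP at -0.19 and ACTB at 0.011, so GAPDH scaling gives the largest shift of these 5. The order of the 10 by fold change does not depend on the scaling.

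**Figure D2:**
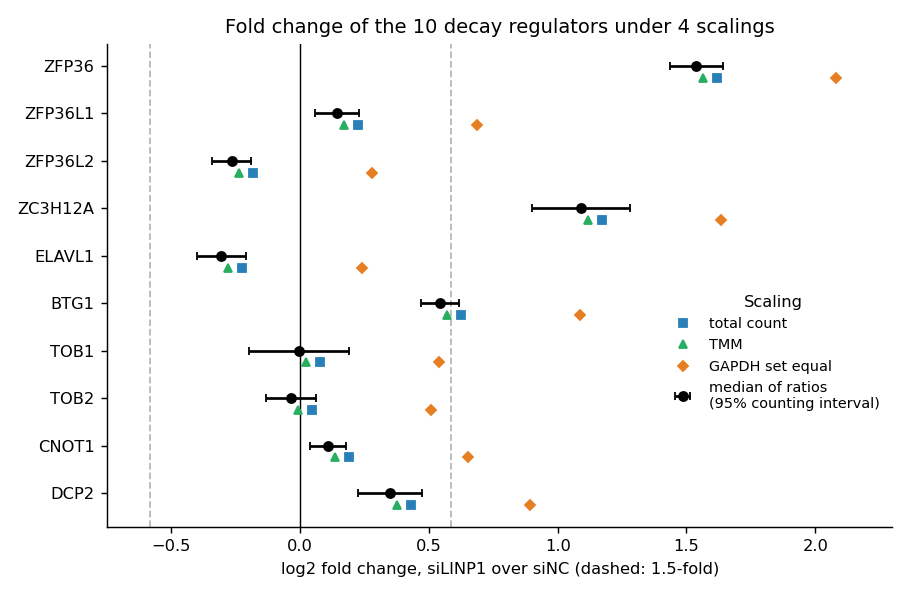
log2 fold change of each regulator, siLINP1 over siNC, by median-of-ratios scaling (black, with the 95% counting interval), total count, TMM and GAPDH scaling; dashed lines mark 1.5-fold. ZFP36 and ZC3H12A lie beyond the right dashed line under all 4 scalings, and BTG1 lies near it except with GAPDH scaling. With GAPDH scaling BTG1, ZFP36L1, CNOT1 and DCP2 lie beyond that line too, and ZFP36L2 and ELAVL1 lie right of 0.

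**Figure D3:**
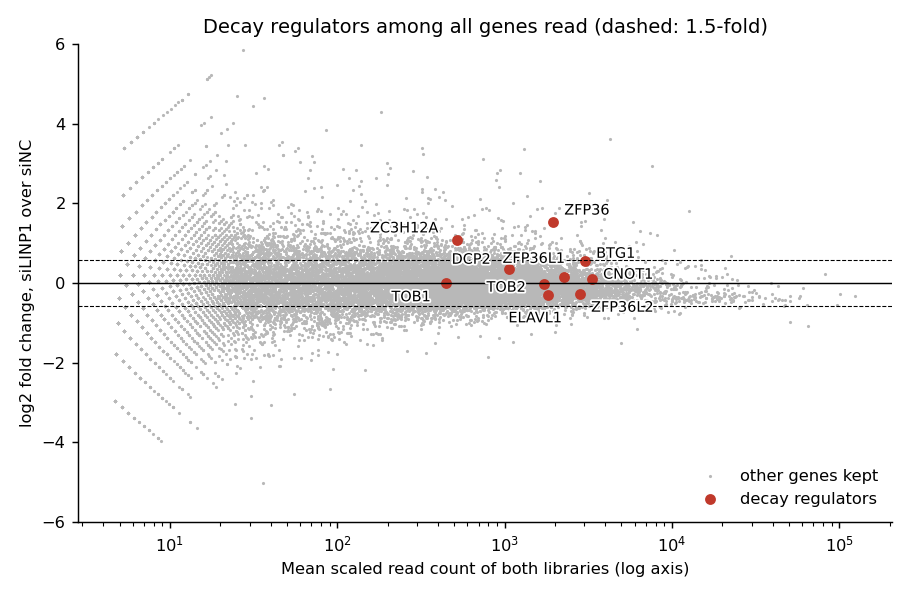
log2 fold change against the mean scaled read count (log axis), 1 grey point for each of 19795 genes with reads in both libraries, with the 10 regulators in red and dashed lines at 1.5-fold. ZFP36 at 1.54 stands above most genes of like read count, and the others except ZC3H12A lie between the lines.

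The 3′UTRs of the regulators differed widely. The longest annotated 3′UTR ran from 713 bases in ZFP36 to 8711 in DCP2, beside a median of 1464.5 bases over the 14132 genes kept that have one. The nonamer TTATTTATT, searched on the sense strand, was present once in ZFP36, ZFP36L1, ZFP36L2 and ELAVL1, and in 9.93% of all these genes. It was absent from the other 6 regulators, among them ZC3H12A and BTG1. The pentamer ATTTA, which the nonamer contains, occurred in 9 of the 10 and in 73.9% of all genes.

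ZFP36 held 5 pentamers in its 713 bases, and its nonamer lies 507 bases into the 3′UTR, with 3 pentamers in the stretch that reaches 50 bases to either side. DCP2 held 28 pentamers, ELAVL1 13 and ZFP36L1 8, and ZC3H12A held 0. The 3′UTR of ZC3H12A was also the poorest in A and U, at 43.5%, whereas that of TOB1 was the richest at 73.7%. ZFP36 stood at 56.7%, close to the median of 57.3% over all genes. The 2 regulators with the largest difference between the libraries thus included 1 with the nonamer and 1 with neither motif. The 4 regulators that share the nonamer had log2 fold changes of 1.54, 0.14, -0.27 and -0.31, the last 2 of which turned above 0 with GAPDH scaling.

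Over all genes with a 3′UTR, those that hold the nonamer were higher in siLINP1 than the rest by a small margin. The median log2 fold change was 0.099 for the 1403 genes with the nonamer and -0.052 for the 12729 without it, a difference of 0.15 that no scaling alters. By number of nonamers the median was 0.089 for 1, 0.12 for 2 and 0.16 for 3 or more. Of the genes with the nonamer 14.9% were more than 1.5-fold higher and 5.92% more than 1.5-fold lower, against 10.4% and 10.9% of those without. Genes with the nonamer had longer 3′UTRs, with a median of 3138 bases against 1330, and among genes without it the median was higher for longer 3′UTRs, from -0.11 under 1000 bases to 0.040 over 3000 bases. Within 3′UTRs of 1000 to 3000 bases the medians were 0.096 for 507 genes with the nonamer and -0.035 for 4885 without. Over 3000 bases they lay closer together, at 0.11 for 734 genes with the nonamer and 0.040 for 2627 without. Under 1000 bases they were 0.0048 for 162 genes with it and -0.11 for 5217 without. The part of length and base composition in the remaining difference was not tested. ZFP36, at 1.54, was far above the middle 50% of genes with 1 nonamer, which ran from -0.17 to 0.37, whereas ZFP36L2 and ELAVL1 lay below it.

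**Figure D4:**
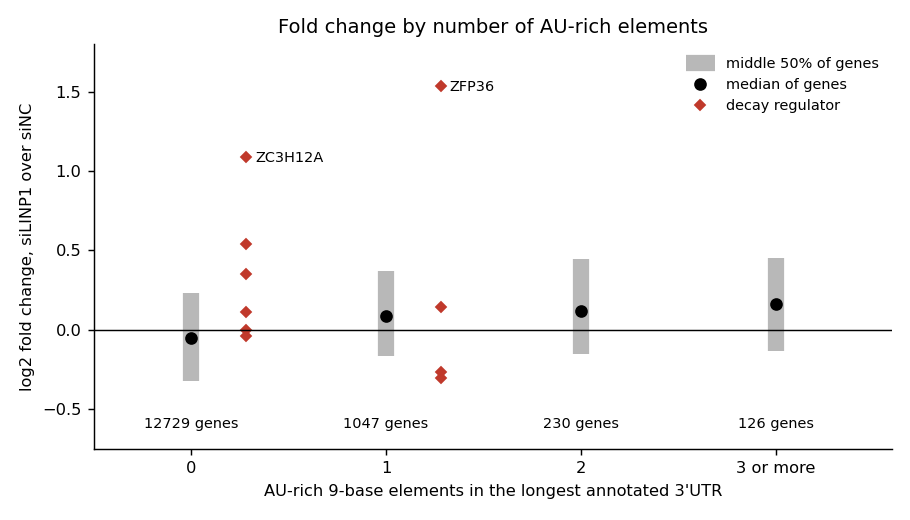
log2 fold change, siLINP1 over siNC, by the number of AU-rich nonamers in the longest annotated 3′UTR; black points are medians over genes, grey bars hold the middle 50% of genes and red diamonds are the 10 regulators. The medians run from -0.052 with 0 nonamers to 0.16 with 3 or more, and ZFP36 lies at 1.54 and ZC3H12A at 1.09. The median 3′UTR length rises over the same classes, from 1330 to 4513.5 bases.

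The siRNAs themselves can bind 3′UTRs through bases 2 to 8 of the guide strand, the seed. The study lists 2 siRNAs against LINP1, with target sites at chr10:6780757-6780775 (siLINP1_01) and chr10:6780487-6780505 (siLINP1_02) on the plus strand of hg19, each in an exon of all 4 annotated LINP1 transcripts. Which of them was used for sequencing is not given in the sources used here. The guide strands, as the reverse complement of the listed sense sequences, are given with the seed in capitals.
siLINP1_01: tCTGAAGTcccgcagttgg
siLINP1_02: tCTTGCAGgctggagagtg

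A match to the first seed, ACTTCAG, was found in the 3′UTR of 3 regulators, ZFP36L2, ELAVL1 and DCP2, and in 17.5% of all genes kept with a 3′UTR. A match to the second, CTGCAAG, was found in ZFP36L2 and BTG1, and in 14.5% of all genes. ZFP36 and ZC3H12A held neither.

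The promoters of both genes past 1.5-fold are shown because they differed between the libraries in the same direction. RefSeq gives 300 bases, from 250 before to 50 after the start, for 7 of the 10 regulators. On GRCh38.p14, that of ZFP36 lies at chr19:39406597-39406896 and that of ZC3H12A at chr1:37474330-37474629, both on the plus strand, with a GC content of 74.7% and 79%. Capitals mark motif matches.
ZFP36: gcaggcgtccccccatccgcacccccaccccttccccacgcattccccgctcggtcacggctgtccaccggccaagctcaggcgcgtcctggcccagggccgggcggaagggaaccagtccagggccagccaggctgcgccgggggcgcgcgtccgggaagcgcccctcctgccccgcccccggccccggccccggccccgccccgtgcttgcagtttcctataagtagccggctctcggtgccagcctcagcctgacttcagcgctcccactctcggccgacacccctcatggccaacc
ZC3H12A: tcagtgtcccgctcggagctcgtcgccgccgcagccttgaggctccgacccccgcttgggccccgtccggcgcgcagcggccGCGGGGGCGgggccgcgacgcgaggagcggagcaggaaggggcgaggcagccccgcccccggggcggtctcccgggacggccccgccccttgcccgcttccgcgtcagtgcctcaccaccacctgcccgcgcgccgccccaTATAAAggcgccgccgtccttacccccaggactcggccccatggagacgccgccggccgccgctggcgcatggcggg

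On both strands the promoters were searched for the CArG box of serum response factor, the NF-kB site, the AP-1 site (TGACTCA or TGAGTCA), the cAMP response element (TGACGTCA), the EGR1 site (GCGGGGGCG or GCGTGGGCG) and the TATA box (TATAAA or TATATA). The ZC3H12A promoter held an EGR1 site from -168 to -160 and a TATA box from -27 to -22 relative to the start. BTG1 held a TATA box from -33 to -28, and the ZFP36 window held none of these letters. Of 11822 promoters of genes kept, 8.98% held the EGR1 site, 7.62% the TATA box, 13.0% the NF-kB site, 3.56% the AP-1 site, 3.07% the cAMP response element and 1.07% the CArG box. The AP-1 and cAMP response element letters do not contain each other, and a match is a description of the sequence only.

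Other proteins that bind AU-rich or stem-loop elements differed in both directions. Of 16 such genes 15 were kept, with a median log2 fold change of 0.055, which turned to -0.018 with a minimum of 100 reads. More than 1.5-fold higher were 4, RC3H2, ZC3H12C, ZC3H12D and ELAVL3, of which the last 2 are named here although they had under 100 reads, and 2 were more than 1.5-fold lower. These are 26.7% and 13.3% of the list, beside 14.4% and 13.0% of all genes kept. RC3H2 (Roquin-2), which binds stem-loops of the kind that ZC3H12A cuts, had 592 and 975 reads, which gives 0.93 on the log2 scale (95% interval 0.78 to 1.08). ZC3H12C, a paralog of ZC3H12A, had 260 and 359 reads and a value of 0.67 (95% interval 0.44 to 0.91).

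The other paralogs had few reads. ZC3H12D had 8 and 15 reads, with an interval from -0.21 to 2.56 on the log2 scale, and ZC3H12B had 69 and 37 reads with a value of -0.69 (95% interval -1.31 to -0.093). ELAVL3, a paralog of ELAVL1, had 2 and 11 reads, with an interval from 0.47 to 5.88, and ELAVL2, also a paralog, had 118 and 106 reads with an interval from -0.34 to 0.45. The clearest difference below 0 was in HNRNPD (AUF1), a decay factor for AU-rich mRNAs, which had 3413 and 1619 reads and a log2 value of -0.87 (95% interval -0.95 to -0.78). HNRNPD and ZC3H12B were the 2 genes of this list more than 1.5-fold lower, and neither was under GAPDH scaling.

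Of the decay machinery beyond the 10, with 21 deadenylation, 16 decapping and 16 exosome genes kept, 3 genes in all were past 1.5-fold. Higher were 9.52% of the deadenylation list, and lower were 6.25% of the decapping list. Over all genes kept the shares were 14.4% higher and 13.0% lower. Among genes with at least 1000 reads they were 5.47% and 3.56%, though not every gene of these lists was read that deeply. Of 21 deadenylase subunits and adaptors kept, 2 were more than 1.5-fold higher and 0 lower, with a median log2 fold change of 0.089, and with GAPDH scaling 12 were higher and the median was 0.63. Those past 1.5-fold were PAN2, the catalytic subunit of a separate deadenylase, with 488 and 733 reads and a value of 0.80 (95% interval 0.63 to 0.96), and BTG2, the closest paralog of BTG1. BTG2 had 1394 and 1970 reads, which gives 0.71 on the log2 scale (95% interval 0.61 to 0.81), beside 0.54 for BTG1. Of 16 genes of decapping and decay from the 5′ end, 0 were more than 1.5-fold higher and 1 was lower, LSM2 of the LSM ring, with 534 and 304 reads and a value of -0.60 (95% interval -0.81 to -0.40), which was not past 1.5-fold by total count, TMM or GAPDH scaling or with size factors from protein-coding genes. The median of this list was -0.25, which turned to 0.29 with GAPDH scaling, while DCP2 stood at 0.35.

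Of 16 exosome and SKI genes 0 passed 1.5-fold in either direction, with a median of -0.044 that turned to 0.038 by total count and 0.50 by GAPDH. The values ran from -0.37 in SKIC8, listed as WDR61, to 0.38 in DIS3L, a cytoplasmic exonuclease of the exosome, and GAPDH scaling would place SKIC8 above 0 too.

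The p38/MK2 branch, which phosphorylates ZFP36 and so restrains it, had 8 genes. Of these DUSP1, the phosphatase that switches p38 off, was more than 1.5-fold higher, with 326 and 532 reads and a log2 value of 0.92 (95% interval 0.71 to 1.12). MAP2K6, a kinase that activates p38, was more than 1.5-fold lower, with 249 and 137 reads and a value of -0.65 (95% interval -0.96 to -0.35), but not by total count or GAPDH scaling. Each of these calls is 12.5% of the list, beside 14.4% higher and 13.0% lower over all genes kept. The median of the branch was -0.22, which turned to 0.32 with GAPDH scaling. Phosphorylation was not measured in these libraries.

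The mRNAs that AU-rich decay is best known for were mostly higher. Of 28 kept, 15 were more than 1.5-fold higher and 2 more than 1.5-fold lower, with a median log2 fold change of 0.66 beside -0.023 over all genes kept. These counts are 53.6% and 7.14% of the list, beside 14.4% and 13.0% of all genes kept. The list was written with earlier results of these data known, and it holds many early response genes and cytokines. Among genes of the list with at least 100 reads the 3 largest values were those of EGR1 with 1874 and 12466 reads (2.94), FOS with 112 and 500 (2.37) and FOSB with 118 and 497 (2.28), all transcription factors of the early response. Lower were IL1B, with 266 and 95 reads (-1.28), and the chemokine CCL2, with 119 and 42 reads (-1.29). Of the 28 genes 23 lay above 0 and 5 below, between the same libraries in which ZFP36 differed 2.90-fold. A link of these values to ZFP36 was not tested.

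Of the 28, 11 (39.3%) held the nonamer in the longest annotated 3′UTR, beside 4 of the 10 regulators and 9.93% of all genes. The median log2 fold change was 1.07 for those 11 and 0.33 for the other 17. More than 1.5-fold higher were 7 of the 11 and 8 of the 17, and 1 gene of each was more than 1.5-fold lower. EGR1 and FOSB, named above for their large values, are among those without the nonamer. As the list was written with earlier results known, this split describes these genes only. DUSP1 and RC3H2 held the nonamer as well. Their first sites are shown with those of FOS and IL1B, which hold the element too and differed in opposite directions, in the same form as the sites of the ZFP36 family. The sites lie at chr5:172195648-172195672 (DUSP1), chr9:125611480-125611504 (RC3H2) and chr2:113587574-113587598 (IL1B) on the minus strand and at chr14:75748765-75748789 (FOS) on the plus strand of GRCh37.
DUSP1: gctggtccTTATTTATTtaacttca
RC3H2: tagttaacTTATTTATTtctatttt
FOS: tttttaatTTATTTATTaagatgga
IL1B: ttccctatTTATTTATTtatttgtt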

How the data were processed

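Total RNA of HSC-1 cells was sequenced on the Illumina platform by the authors, with 1 library for siNC and 1 for siLINP1. Per the paper's methods the reads were aligned to GRCh37/hg19 with Tophat2 and counted with HTSeq. The submitters' processing notes list HISAT2, TopHat2, Bowtie2 and HISAT without a role. Versions, gene annotation, counting mode and strand setting are not given in the sources used here, and the labels and the methods differ on confluency and time after transfection. The authors deposited raw read counts per gene together with RPKM values, and RPKM recomputed from count, gene length and total count differed by at most 5.8e-11. The table also held 12 columns of samples outside this series, which were not used.

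The regulators and all gene lists were chosen with earlier results of these data known. Size factors were taken as the median of ratios over genes (1.08 for siNC, 0.930 for siLINP1). Genes with fewer than 10 reads over both libraries were left out, and no pseudocount was added. For a fold, the 95% interval follows from the Clopper-Pearson limits of the split of a gene's reads between the libraries, and that of a level the exact Poisson interval. A gene without reads in 1 library entered medians and counts at a floor of 3 reads there. Other low counts were used as they are. The 3′UTRs were taken from GENCODE lifted to GRCh37, the longest per gene, and matched 18746 genes by symbol or synonym. Synonyms came from a RefSeq table, and promoters from RefSeq on GRCh38.p14. The siRNA sequences came from the study's oligonucleotide list. No protein sequence was used here.

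Named were all 10 regulators, LINP1, GAPDH and, of each list, up to 3 genes in either direction past 1.5-fold with at least 100 reads, or the largest and smallest value where none passed. Marker genes, reference genes, ZC3H12D, ELAVL3 and overlapping genes were named in addition. Alternatives were total count (CPM), TMM and GAPDH scaling, a minimum of 1 or 100 reads, pseudocounts of 1 and 5, protein-coding genes only and other definitions of an AU-rich 3′UTR. The fold calculation was tested on simulated counts. TMM factors came from edgeR 4.0.16 in R 4.3.3, and the rest was computed in Python 3.11.15 with scipy 1.17.1, pandas 2.3.3, numpy 2.4.6 and matplotlib 3.10.9.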

Additional observations from a re-analysis of the deposited data

How the results depend on the processing

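No paired analysis was possible because each condition has 1 library, and no library could be left out for the same reason. Over 11 alternatives 49 results gave 395 values, of which 335 stayed within the tolerance of the reported value, 60 moved beyond it and 0 reversed a value past 1.5-fold. Some of the 335 could not move. A read minimum leaves the fold of a regulator as it is, and a scaling leaves the difference of medians as it is. Changes of sign below 1.5-fold are not in that count, and ZFP36L2, ELAVL1, TOB1 and TOB2 changed sign over the scalings. The tolerance was the counting interval for a gene, the interval of the median over genes for a list, 1.5 times for a count and 0.5 of its size for the difference of medians, and for short lists it is wide enough to span 0. A scaling shifts every log2 fold change alike, by 0.082 with total count, 0.027 with TMM, 0.032 with size factors from protein-coding genes and 0.54 with GAPDH. ZFP36 ranged from 1.53 to 2.08 and ZC3H12A from 1.08 to 1.63 over all alternatives. With GAPDH scaling the log2 values were 2.08 for ZFP36, 0.69 for ZFP36L1, 0.28 for ZFP36L2, 1.63 for ZC3H12A, 0.24 for ELAVL1, 1.09 for BTG1, 0.54 for TOB1, 0.51 for TOB2, 0.65 for CNOT1 and 0.89 for DCP2, with 6 regulators more than 1.5-fold higher, and 8808 of all genes higher and 821 lower. The medians were then 0.52 for all genes, 0.67 for the 10 regulators, 0.60 for element-binding proteins, 0.32 for p38/MK2 genes, 0.63 for deadenylation, 0.29 for decapping, 0.50 for exosome and 1.21 for AU-rich mRNAs, and 0.64 with and 0.49 without the nonamer. More than 1.5-fold higher were then 8 element-binding, 12 deadenylation, 4 decapping, 4 exosome, 2 p38/MK2 and 23 AU-rich mRNA genes, with 0 element-binding, decapping and p38/MK2 genes lower. By total count ZFP36L2 stood at -0.18, BTG1 at 0.63 and CNOT1 at 0.19, so that 3 regulators were more than 1.5-fold higher, with 1 decapping gene higher, 0 decapping and 0 p38/MK2 genes lower, and medians of 0.059 for all genes and of 0.18 with and 0.030 without the nonamer. By TMM the medians were 0.0042 for all genes and 0.13 with and -0.024 without the nonamer, and 0 decapping genes were lower. With a minimum of 100 reads 1163 genes were higher and 903 lower, with 2 element-binding genes higher. Among protein-coding genes 1673 were higher and 1346 lower, with medians of -0.0058 for all genes and 0.13 with and -0.020 without the nonamer, and 0 decapping genes lower. At 356 to 3460 reads per library the counting interval of a regulator spans 0.14 to 0.39 on the log2 scale, and the spread between cultures is unknown.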
